A study of Mus musculus with 219 samples.

Results

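The histone and linker histone genes were followed in mouse embryos made by intracytoplasmic sperm injection (ICSI), at the 2-cell stage and as blastocysts. A gene was a member if its symbol began with Hist1h to Hist4h, H1f, H2af, H3f, H2b or H4f and was no pseudogene, which gave 84 of the 32285 genes in the count tables. Of these, 67 lie in the histone gene clusters and code for H1 (6 genes), H2A (18), H2B (18), H3 (12) and H4 (13). A further 4 are linker histone genes outside the clusters and 12 are variant core histone genes, while H3f3aos is an antisense RNA whose symbol met the rule. The rule uses names and no expression value. The genes the comparisons turn on lie, on GRCm38, with H1foo (ENSMUSG00000042279) at chr6:115944938-115950236, H3f3a (ENSMUSG00000060743) at chr1:180800832-180813943, Hist1h1a (ENSMUSG00000049539) at chr13:23763666-23764406, H1f0 (ENSMUSG00000096210) at chr15:79028450-79030504 and H2afx (ENSMUSG00000049932) at chr9:44334694-44336077.

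A single CD1 sperm head was placed in each B6C3F1 oocyte opposite the meiotic spindle (contralateral), next to it (ipsilateral, called isolateral in the labels) or between the poles (equatorial), which are the 3 groups compared throughout. The embryos were kept together in KSOM medium with amino acids to the 2-cell stage, and their blastomeres were then separated, within hours of the first cleavage, and either sequenced singly or cultured singly into twin blastocysts, while intact blastocysts came from embryos that were not bisected. All embryos went through ICSI, so no naturally fertilised group stands in these comparisons, and the study asked whether the place of fertilisation and the first cleavage set apart the sister blastomeres. The data used here are 55 2-cell embryos with both sisters (21 contralateral, 21 ipsilateral, 13 equatorial), 19 twin pairs (6, 7 and 6) and 31 intact blastocysts (11, 8 and 12), and the counts of sisters or twins were added so that the embryo is the replicate. Nothing in the labels says which embryos shared a donor or a day.

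Nucleosomes are built from the core histones H2A, H2B, H3 and H4, and linker histone H1 binds where the DNA enters and leaves them. The clustered genes are transcribed mainly in S phase and give mRNAs that end in a stem-loop instead of a poly(A) tail, whereas the variant genes, such as H3f3a and H3f3b for the replacement histone H3.3, give polyadenylated mRNAs through the whole cell cycle. The mouse oocyte holds its own linker histone, H1foo, which is replaced by somatic linker histones during cleavage.

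The end of the mRNA matters for the readings below, because SMART-Seq chemistry starts cDNA at poly(A) tails with oligo(dT). A stem-loop of 16 bases was found in the transcript models (GENCODE M21, GRCm38) of 44 of the 67 clustered genes (65.7%), in 2 of the 16 linker and variant genes outside the clusters, H2afx and H2bfm, and in 6 of 32074 genes that are no members (0.0187%). The 3 forms shared by most clustered genes are shown because they mark the transcripts that can end without a tail; the capitals are the bases of the loop, and the arms on either side pair with each other.
Stem-loop of 26 clustered genes, as in Hist1h1e at chr13:23621782-23621797, minus strand: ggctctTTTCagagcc
Stem-loop of 7 clustered genes, as in Hist1h4d at chr13:23581950-23581965, plus strand: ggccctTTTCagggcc
Stem-loop of 6 clustered genes, as in Hist1h3f at chr13:23544932-23544947, plus strand: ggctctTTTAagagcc
Each of the 3 named positions lies in the exon after the coding region, and the models of Hist1h1e, Hist1h4d and Hist1h3f go on for 1153, 770 and 365 bases beyond it. No stem-loop was found in the models of Hist1h1a, Hist1h1b and Hist1h2bc. The models of Hist1h1a and Hist1h1b are 741 and 743 bases long, and that of Hist1h4k, also without one, 312. A model that stops early can leave a stem-loop out, so its absence here is a property of the model. Of the clustered genes, 22 had models that ran over 100 bases past the stem-loop. Their median level (each gene's mean over the 55 2-cell embryos) was 1.65 CPM (counts scaled to the library total). It was 0.222 CPM for the 22 genes with shorter ends and 0.245 CPM for the 23 whose models hold no stem-loop. A median of 85.4% of the 100-base windows of the first set were unique in the transcriptome, against 45.5% and 37.9%, so the 3 sets also differ in how many reads could be placed, and the part of either property was not tested.

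Promoters of 3 linker genes that took different courses between the stages are shown, from RefSeq on GRCm38.p6, each from 250 bases before to 50 bases after the annotated start. Capitals mark CCAAT on either strand (ATTGG is its reverse), TATAAA and AAACACA, the last being a motif of H1 promoters.
H1foo promoter, chr6:115944681-115944980, plus strand: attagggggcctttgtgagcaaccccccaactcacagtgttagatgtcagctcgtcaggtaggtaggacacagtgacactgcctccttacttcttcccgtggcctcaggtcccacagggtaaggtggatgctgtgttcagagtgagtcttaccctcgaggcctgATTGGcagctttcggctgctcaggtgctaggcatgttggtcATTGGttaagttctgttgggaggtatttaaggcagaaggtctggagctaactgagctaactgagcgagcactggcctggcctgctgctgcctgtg
Hist1h1a promoter, chr13:23763418-23763717, plus strand: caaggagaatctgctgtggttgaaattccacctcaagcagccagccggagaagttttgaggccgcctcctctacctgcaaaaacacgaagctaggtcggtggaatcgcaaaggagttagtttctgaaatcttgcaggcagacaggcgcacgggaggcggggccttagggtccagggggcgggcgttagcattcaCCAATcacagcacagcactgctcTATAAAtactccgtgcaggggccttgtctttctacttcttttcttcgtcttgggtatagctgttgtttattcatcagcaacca
Hist1h1e promoter, chr13:23622509-23622808, minus strand: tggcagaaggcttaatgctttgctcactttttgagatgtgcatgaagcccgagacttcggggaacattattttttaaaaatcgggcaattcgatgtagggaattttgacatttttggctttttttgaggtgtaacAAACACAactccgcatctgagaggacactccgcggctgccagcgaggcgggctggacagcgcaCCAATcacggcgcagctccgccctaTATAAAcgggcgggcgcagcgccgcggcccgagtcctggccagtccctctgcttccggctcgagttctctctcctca
CCAAT stood in 53 of the 62 clustered genes with a promoter in the table (85.5%), with 3 of 12 H4 genes among them, against 37.4% of all 32851 promoters of this length. TATAAA stood in 35 of the 62, against 13.6% of all. AAACACA was found in 5 of the 6 clustered H1 genes, against 7.18% of all promoters, and Hist1h1a was the gene without it. The octamer core ATTTGCA was found in 7 of 18 H2A and 6 of 16 H2B promoters, against 4.02% of all. These are matches of letters on both strands, and whether a factor binds them was not tested.

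Total counts had a median of 1340425 per blastomere (360474 to 2100561), 1093478 per twin (713410 to 2161062) and 705837 per intact blastocyst (234099 to 1254428). The oocyte and trophectoderm markers fitted the labelled stages. All 6 oocyte and early 2-cell markers were lower in intact blastocysts than in 2-cell embryos, and all 5 trophectoderm markers were higher. Of 4 epiblast markers 1 was higher (Nanog, log2 2.54) and 2 were lower, Pou5f1 (-1.88) and Sox2 (-1.24). Of 4 primitive endoderm markers 3 were higher and 1 lower, Gata4 (-1.32). Of all genes 31.2% were higher and 45.9% lower. Summed cumulus cell markers stood at 26.6 CPM in 2-cell embryos (1.33 to 59.4), 7.02 CPM in twins (0 to 17.8) and 6.98 CPM in intact blastocysts (0 to 116.2). Of the 84 genes, 77 had a count in the libraries used and 7 had none, and 26 were found in at least 50% of the blastomeres, 48 of the twins and 33 of the intact blastocysts. Hist2h2aa1, Hist2h2aa2, Hist2h3b and Hist2h2bb, which had none, have 0% of their 100-base windows unique, so their reads may not have been placed. Hist2h3c1 also has 0% but had 627 counts in 2-cell embryos and 123 in blastocysts, so this measure alone does not tell which reads were placed.

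In 2-cell embryos the oocyte linker histone and the variant genes held most of the captured histone reads, and mRNA without a tail was not measured. Per length, as length-scaled shares (TPM), H1foo alone made up 76.8% ± 7.7 (SD, n = 55) of the linker histone total, H1f0, the replacement linker histone of differentiated cells, 12.8% ± 2.7, and the 6 clustered H1 genes together 9.97% ± 6.25. The 67 clustered genes made up 16.6% ± 3.1 of all histone TPM. H3f3a and H3f3b together held 29.2% ± 2.1.

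H3f3b stood at 1300 CPM ± 151 (SD, n = 55; lowest 971, median 1293, highest 1651) and was the most abundant member in CPM. H1foo followed at 633 CPM ± 137 (379, 638 and 1078) and H3f3a at 342 CPM ± 66 (203, 344 and 501). The H2A.Z genes H2afz and H2afv stood at 329 ± 54 and 246 ± 48 CPM and H1f0 at 177 ± 35 CPM. These 6 genes were counted in all 110 blastomeres. H2afj reached 53.1 ± 28 CPM, H2afx, whose product is phosphorylated at DNA breaks, 15.9 ± 9.4 CPM, and H2afy, which codes for macroH2A1, 7.5 ± 7.87 CPM.

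Among the clustered genes Hist1h1a, a somatic H1 gene, was highest at 42.4 CPM ± 27.3 (SD, n = 55; lowest 5.66, median 34.8, highest 128.7). Hist1h2ap, an H2A gene, followed at 32.6 ± 10.0 CPM, and the H4 genes Hist1h4d and Hist1h4c at 19.2 ± 12.97 and 19.1 ± 7.9 CPM. The other 6 of the 10 highest were Hist4h4 (11.5 CPM), Hist1h2aa (10.1), Hist1h3f (8.25), Hist1h2bj (7.52), Hist1h2bc (6.75) and Hist1h4a (5.87). By type, summed clustered H2A genes stood at 347 TPM ± 88, H4 at 229 ± 67, H1 at 220 ± 136, H2B at 167 ± 81 and H3 at 40.03 ± 20.7. Only 7.8% of the 100-base windows of Hist1h2ap are unique, so reads that also match near-identical H2A genes may have been dropped or split, and its level is uncertain. For H1foo and Hist1h1a 100% of the windows are unique.

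The other genes outside the clusters were rare in 2-cell embryos. H1fx stood at 3.35 ± 2.85 CPM, and H2afy2, H2afb1, H2afb2 and H2bfm had 55, 15, 1 and 77 counts over all 110 blastomeres. No library held a count of H1fnt or H2afb3, both known from the male germ line. H3f3aos (chr1:180813776-180816859) had 302 counts. It overlaps H3f3a on the other strand at chr1:180813776-180813943, and the counting ignored strand, so reads of the pair within this stretch cannot be told apart.

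The site of ICSI was the first comparison. Against equatorial embryos H1foo was higher in both other groups, H3f3a was higher after contralateral ICSI, and Hist1h1a was lower after ipsilateral ICSI, but in the smaller of both plates, which holds 2 equatorial embryos, these differences were near 0 or opposite in sign. Both comparisons share the 13 equatorial embryos. Embryos were fitted with edgeR's quasi-likelihood test with plate as a term, and p-values were adjusted over all genes (Benjamini-Hochberg).

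H1foo stood at 657 CPM ± 105.1 after contralateral ICSI (SD, n = 21; lowest 473, median 685, highest 799). After ipsilateral ICSI it stood at 678 CPM ± 138 (n = 21; 515, 662 and 1078) and after equatorial ICSI at 524 CPM ± 127.8 (n = 13; 379, 466 and 750). The 3 ranges overlapped, with the median of the equatorial embryos below the lowest embryo of the other groups. H1foo was 1.26-fold higher after contralateral than after equatorial ICSI (log2 0.33 ± 0.10, SE, edgeR adjusted p = 0.0149) and 1.26-fold higher after ipsilateral ICSI (log2 0.34 ± 0.10, edgeR adjusted p = 0.0257). H1foo made up 78.3% ± 6.0 of linker TPM in contralateral, 80.1% ± 5.2 in ipsilateral and 69.3% ± 8.8 in equatorial embryos.

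H3f3a stood at 373 CPM ± 68 after contralateral (214, 364 and 501), 340 ± 50 after ipsilateral (203, 345 and 432) and 294 ± 58 after equatorial ICSI (219, 293 and 421). Its ranges overlapped widely. It was 1.27-fold higher after contralateral than after equatorial ICSI (log2 0.34 ± 0.10, edgeR adjusted p = 0.00936). Hist1h1a stood at 39.04 CPM ± 24.6 after contralateral (8.13, 30.8 and 87.5), 31.8 ± 21.4 after ipsilateral (5.66, 25.5 and 81.7) and 65.04 ± 28.3 after equatorial ICSI (17.9, 63.8 and 128.7). The groups overlapped here too, and the highest embryo was equatorial. Its log2 fold change was -1.20 ± 0.33 after ipsilateral ICSI (edgeR adjusted p = 0.0183) and -0.76 ± 0.31 after contralateral ICSI (edgeR adjusted p = 0.0965).

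Few members were called, a share near or below that of all genes. Between contralateral and equatorial ICSI, 2 of the 29 members tested were higher and none lower, where 13.2% of all 13141 genes were called (7.12% higher and 6.06% lower). With unadjusted p-values below 0.05 there were 8 members, 7 of them higher (with H3f3b, H2afz, Hist3h2ba, Hist1h4c and Hist1h2aa), where 26% of all genes stood. Between ipsilateral and equatorial ICSI, 1 member was higher and 1 lower, where 6.65% of all genes were called (3.43% higher and 3.22% lower), and 6 members had an unadjusted p under 0.05, where 19.6% of all genes stood. In the comparison of contralateral with ipsilateral ICSI, edgeR and DESeq2 both called 0 of all genes, and no member had an edgeR p under 0.05 (4.22% of all genes had one) against 1 with DESeq2. The smallest p-values there were those of Hist3h2ba (log2 1.13), H3f3a (0.15) and H2afx (-0.52).

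Plate 1 held 11 of the 13 equatorial embryos. The paper gives a paired-end and a single-end set for blastomeres and single-end reads alone for blastocysts. It matches neither set to a plate, so a different sequencing of the plates is an assumption here. For its analysis the paper kept the first read of each pair and cut it to 100 bases, the length of the single-end reads. By the column names each well row of a plate held a single ICSI site, so site and well row cannot be told apart. In plate 1 alone H1foo had a log2 fold change of 0.42 for contralateral and 0.43 for ipsilateral against equatorial ICSI, H3f3a one of 0.48 for contralateral, and Hist1h1a one of -1.48 for ipsilateral ICSI. In plate 2 alone (3 contralateral, 8 ipsilateral and 2 equatorial embryos) the same values were 0.02, 0.03, -0.22 and -0.08, and edgeR called 0 of 15162 genes. The means of H1foo in plate 2 were 685, 691 and 679 CPM. Equatorial embryos also had fewer genes detected per blastomere (11461 ± 659, SD, n = 13, against 12018 ± 551 and 12080 ± 610, n = 21 each). With total count and detected genes as added terms, the contralateral differences kept adjusted p-values of 0.0323 for H1foo and 0.0112 for H3f3a in edgeR, and those of ipsilateral ICSI had 0.122 for H1foo and 0.360 for Hist1h1a. Among embryos whose blastomeres held at most 2% mitochondrial counts, the adjusted p of H1foo in edgeR was 0.0428 for contralateral and 0.0696 for ipsilateral ICSI. With the permutation rank-sum test on added TPM, the adjusted p of H1foo was 0.0822 for contralateral and 0.0592 for ipsilateral ICSI, while H3f3a (0.0360) and Hist1h1a (0.0335 and 0.0113) passed. The share of all genes called between contralateral and equatorial ICSI was 16.9% in plate 1, 9.08% with the added terms, 17.3% with DESeq2, 14.5% with all sister pairs, 15.7% without a filter on low counts and 16.6% with the rank-sum test. For ipsilateral ICSI it was 0.464% with the added terms, 4.55% with the mitochondrial limit and 10.4% without the filter, which gave 6.32% between contralateral and ipsilateral ICSI, 27.7% between twins and intact blastocysts and 58.7% between stages.

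**Figure D1:**
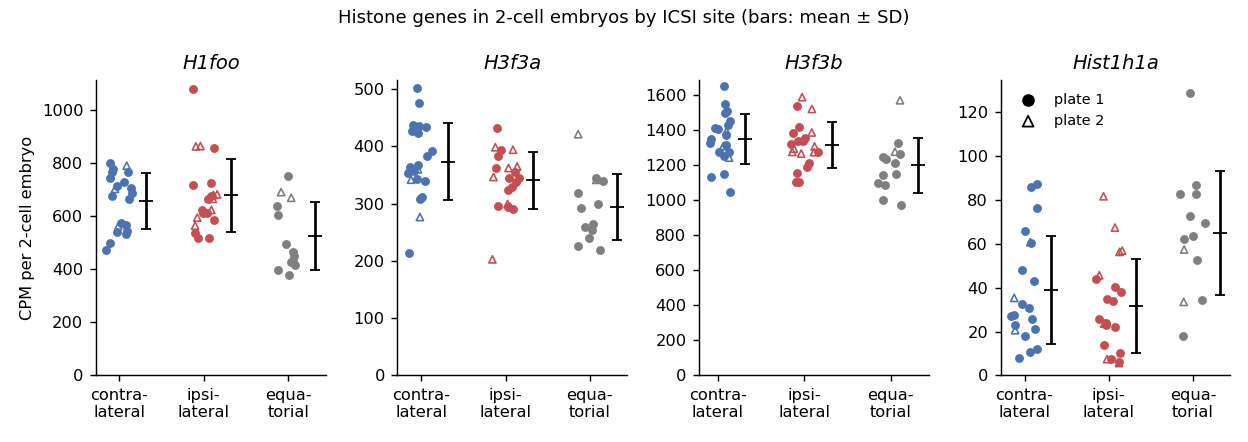
CPM of 4 histone genes in each 2-cell embryo (y axis, linear from 0) by ICSI site (x axis), with plate 1 as filled circles, plate 2 as open triangles and the mean ± SD of each site as bars. The equatorial embryos of plate 1 have the lowest mean for H1foo (495 CPM) and H3f3a (278 CPM) and the highest for Hist1h1a (68.6 CPM), while the 2 equatorial embryos of plate 2 lie among the other groups, with H1foo at 668 and 690 CPM.

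The genes that process histone mRNA and carry histones to DNA were read from lists of 14 and 27 genes. Of 13 processing genes tested between contralateral and equatorial ICSI, 2 were higher, Slbp (log2 0.58, edgeR adjusted p = 0.000198), whose product binds the stem-loop, and Lsm10 (0.83), a subunit of the U7 particle that cuts behind it, and 1 was lower, Upf1 (-0.88), an RNA helicase of histone mRNA decay. Of 27 chaperone and deposition genes 3 were higher and 7 lower, where 7.12% of all genes were higher and 6.06% lower. Asf1a, a chaperone of H3 and H4, had a log2 fold change of 1.09 (edgeR adjusted p = 2.38e-05) and Ubn1, of the HIRA complex that deposits H3.3, one of -1.10 (2.38e-05 as well). Rbbp7, a histone-binding subunit of several complexes, was higher (0.58) and Cabin1, also of the HIRA complex, lower (-0.69).

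After ipsilateral ICSI Slbp (0.35) was again higher than after equatorial ICSI, and of the 27 chaperone genes 3 were higher and 4 lower, with Asf1a at 0.84, Asf1b at 0.45, Ubn1 at -0.90 and Cabin1 at -0.60, where 3.43% of all genes were higher and 3.22% lower. No gene of either list was called between contralateral and ipsilateral ICSI. The list medians between contralateral and equatorial ICSI were -0.05 for processing and -0.17 for chaperones, with 0.00 over all genes.

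Sister blastomeres of one embryo differed less in the most abundant mRNAs outside the clusters than in the median gene. The rarer clustered genes mostly had a spread near that of the median gene. The SD within a pair, on the scale of log2(CPM + 1), was 0.17 for H3f3b, 0.19 for H1foo, 0.24 for H3f3a and 0.25 for H2afv over 55 pairs. H1f0 and H2afz each had 0.29. Of the clustered genes only Hist1h2ap (0.29) was as even, and Hist1h4c (0.94), Hist1h1a (1.24) and Hist1h4d (1.302) were not, with 1.34 as the median of all genes tested. Outside the clusters H2afj (0.82), H2afx (1.33) and H2afy (1.96) were uneven as well. Between embryos the SD (of pair means, with site and plate means taken out) was 0.28 for H1foo and 1.12 for Hist1h1a. It was 0.16 for H3f3b, 0.24 for H2afz, 0.26 for H3f3a, 0.29 for H1f0 and 0.31 for H2afv. For H3f3b, H2afz and H1f0 the SD within a pair was thus near or above that between embryos. A count of 0 in 1 sister only was met in 4 pairs for Hist1h1a, 29 for H2afy and 35 for Hist1h4h. The evenness went broadly with the level of the gene, but Hist1h2ap (32.9 CPM per blastomere) was more even than Hist1h1a (43.4 CPM) and H2afj (53.5 CPM). The part of the level in it was not tested.

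No histone gene passed a test of whether the difference between sisters depended on the ICSI site. For the absolute difference between sisters limma called 0 of 29 members in each comparison of sites, where 0.259% of all genes were called for contralateral against equatorial, 0.221% for ipsilateral against equatorial and 0% for contralateral against ipsilateral ICSI. At an unadjusted p under 0.05 there were 3, 5 and 1 members, where 10.3%, 11.8% and 4.81% of all genes stood. The smallest p-values were those of Hist1h4c, H1foo and H1fx (contralateral against equatorial), of Hist1h2ae, H2afj and H1fx (ipsilateral against equatorial) and of Hist1h2ae, H3f3a and Hist4h4 (contralateral against ipsilateral). H1foo had a mean difference between sisters that was smaller by 0.18 after contralateral and by 0.15 after ipsilateral than after equatorial ICSI, with adjusted p-values of 0.254 and 0.367 in limma. Between the sisters named a and b, letters that mark no known identity, edgeR called 0 of 13141 genes, and the 3 members under an unadjusted p of 0.05 were Hist2h4, H3f3b and H3f3a, where 4.63% of all genes stood.

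**Figure D2:**
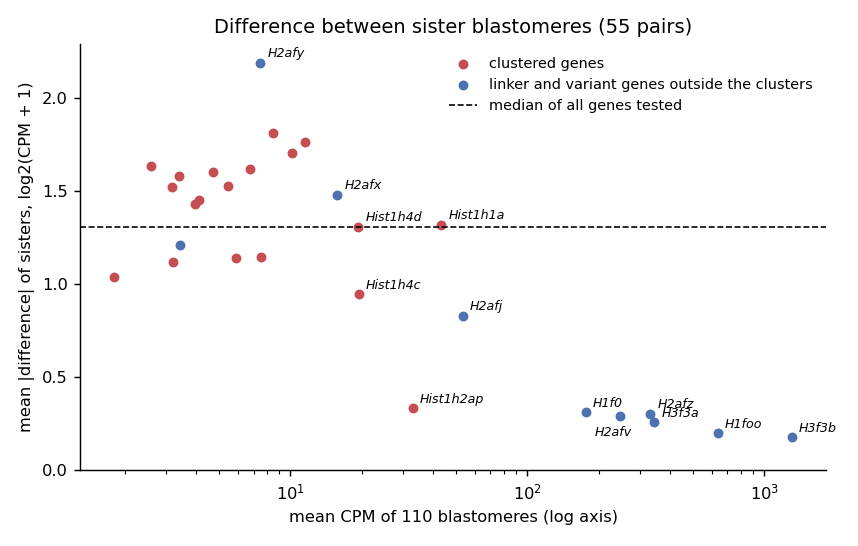
Mean absolute difference between sister blastomeres on the log2(CPM + 1) scale (y axis) against the mean CPM of the 110 blastomeres (x axis, log axis) for the 29 members tested, clustered genes in red and the others in blue, with the median of all genes as a dashed line. H3f3b and H1foo lie lowest at 0.18 and 0.20, and H2afy highest at 2.19.

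From the 2-cell embryo to the blastocyst almost all H1foo mRNA was lost, and the clustered H1 genes made up a larger share of a smaller captured linker total. The models of Hist1h1c, Hist1h1d and Hist1h1e hold a stem-loop, and mRNA without a tail was not measured. A change in their tailed part between stages therefore cannot be told from a change in level. H1foo fell from 633 CPM in 2-cell embryos to 0 counts of 22125255 in the 31 intact blastocysts, which is at least 4695-fold lower (taking 3 counts over the group as the floor). In twins it had 5 counts of 43636294, all from 1 equatorial embryo, which is 5556-fold lower (95% exact counting interval 2381 to 17112). Over the same step Hist1h1b, Hist1h1c, Hist1h1d and Hist1h1e rose and Hist1h1a fell. Intervals and floors cover counting error only, since the libraries carry no molecular identifiers.

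Hist1h1e stood at a median of 0 CPM in 2-cell embryos, and in intact blastocysts at 29.2 CPM ± 16.4 (SD, n = 31; lowest 0, median 29.7, highest 57.3). It was 15.2-fold higher in the fit (log2 3.93 ± 0.97, edgeR adjusted p = 0.00019). Hist1h1c, Hist1h1d and Hist1h1e passed the count filter only through blastocysts. Their direction was thus largely fixed in advance, and their p-values lend it no weight. Hist1h1d had a log2 fold change of 3.77, Hist1h1b of 2.93 and Hist1h1c of 2.63. Hist1h1a went the other way, from 42.4 CPM to 8.73 ± 10.6 (0, 6.04 and 50.4), a log2 fold change of -2.88 ± 0.38 (edgeR adjusted p = 1.23e-10). The ranges of Hist1h1a overlapped and those of H1foo did not. Reads of Hist1h1e can also lie in the model of Hist1h2be, which overlaps it, and are uncertain to that extent.

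Per length the captured linker total was 2242 TPM ± 301 in 2-cell embryos, 356 ± 169 in intact blastocysts and 812 ± 105.7 in twins. The 6 clustered H1 genes held 56.1% ± 15.2 of it in intact blastocysts and 44.4% ± 8.6 in twins. Hist1h1b was the largest of these with 19.5% and 22.1%, followed by Hist1h1e (13.3% and 10.4%) and Hist1h1c (12.5% and 6.72%). The order depends on the length of the models, which is 743 bases for Hist1h1b, 1930 for Hist1h1e, 1560 for Hist1h1c and 7425 for Hist1h1d. In CPM Hist1h1e stood above Hist1h1b in intact blastocysts and in twins. H1f0 held 34.5% in intact blastocysts and 52.3% in twins.

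**Figure D3:**
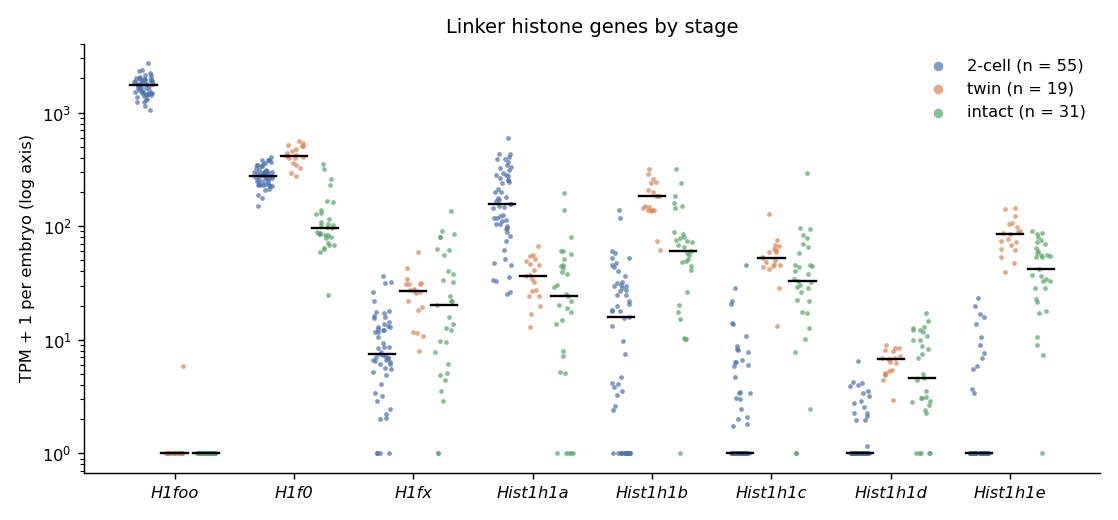
TPM + 1 (y axis, log axis) of 8 linker histone genes in each 2-cell embryo (blue, n = 55), twin pair (orange, n = 19) and intact blastocyst (green, n = 31), with medians as black lines. H1foo lies above 1000 in 2-cell embryos and at 1, which stands for 0 TPM, in all blastocysts but 1, while Hist1h1b, Hist1h1c, Hist1h1d and Hist1h1e have higher medians in blastocysts.

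Of the 29 members tested between the stages 12 rose and 12 fell, where 77.1% of all 12645 genes were called (31.2% higher and 45.9% lower), so the share of members that changed is near the background. The count filter took genes with enough counts in either stage. Hist1h1c, Hist1h1d and Hist1h1e, which rose, did not pass it among 2-cell embryos alone. H1foo, Hist1h2aa, Hist3h2ba, Hist4h4, Hist1h3f, Hist1h4a, Hist1h4c and Hist1h2bj, which fell, did not among blastocysts alone. Their direction was thus largely fixed by the filter, and the numbers that rose and fell carry no weight of their own. The median gene had a log2 fold change of -0.41 in this fit, and -0.10 with library sizes alone, so values are best read against that shift. The 12 genes called higher lie above 0 by definition, and all 12 that fell lie below -0.41. Among the variant genes H2afy rose most, from 7.5 CPM to 367 ± 124.8 (SD, n = 31; lowest 211, median 346, highest 730), with no overlap of the ranges (log2 4.78 ± 0.53, edgeR adjusted p = 1.26e-13). H2afj (2.11), H2afx (0.94) and H2afz (0.44) rose too, while H3f3b (-0.68) and H2afv (-0.82) fell and H3f3a (0.22, edgeR adjusted p = 0.0758) did not pass.

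The clustered core genes lay on both sides of 0. Each of those that fell is named above as passing the count filter through 2-cell embryos alone, so its direction carries no weight of its own. Hist1h2ae, an H2A gene, rose to 59.2 CPM ± 40.04 (lowest 0, median 63.6, highest 141; log2 4.77 ± 0.89, edgeR adjusted p = 1.43e-06), and Hist1h2bc (2.40), Hist1h4d (2.00) and Hist1h2ap (1.01) rose with it. Lower were Hist1h2aa (-5.18), Hist3h2ba (-4.39), Hist4h4 (-4.04), Hist1h3f (-3.60), Hist1h4a (-3.45), Hist1h4c (-2.78) and Hist1h2bj (-1.34). The H4 genes differed among themselves, since Hist1h4c fell from 19.1 to 3.67 CPM while Hist1h4d went from 19.2 to 68.7 CPM. Hist1h2aa and Hist1h2ba, the H2A and H2B pair known from the germ line, had 1507 and 471 counts in 2-cell embryos against 6 and 1 in intact blastocysts and 37 and 0 in twins, and Hist1h2ba is named here after its values were seen. Summed over the 67 clustered genes the captured level was 1004 TPM ± 212 in 2-cell embryos, 1421 ± 573 in intact blastocysts and 2020 ± 366 in twins.

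With twins in place of intact blastocysts, a comparison chosen after the data were seen, 17 of 32 members were higher and 10 lower, where 79.1% of all genes were called. H1f0 changed sides, being higher in twins (log2 0.56, edgeR adjusted p = 1.09e-05) and lower in intact blastocysts (-1.54 ± 0.17, edgeR adjusted p = 6.82e-14) than in 2-cell embryos, and H2afv was near 0 in twins (0.07). H2afx was 10.9-fold higher in twins and 1.92-fold higher in intact blastocysts. Most 2-cell embryos were on plate 1, and all blastocysts were assigned to plate 2, which their column names do not give. The plates are assumed to have been sequenced differently, though the paper brought the reads to one length. In plate 2 alone 12 of 20 members were higher and 6 lower (75.6% of all genes called).

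**Figure D4:**
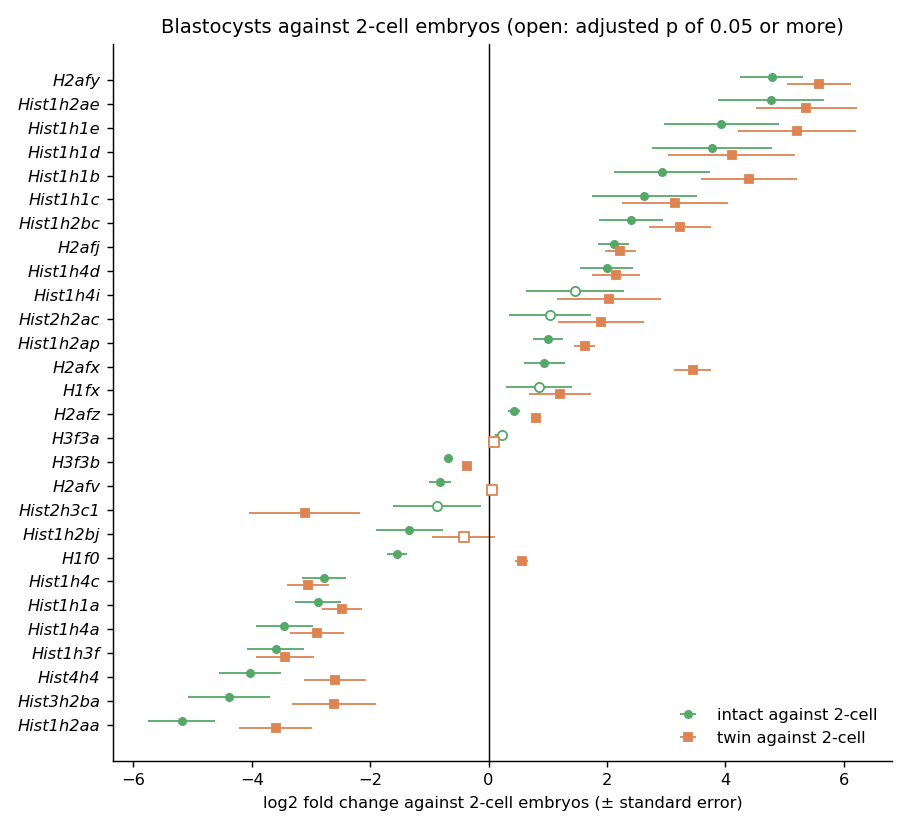
Log2 fold change against 2-cell embryos (x axis, ± standard error) of 28 members, for intact blastocysts (green circles) and twins (orange squares), with open symbols where the adjusted p was 0.05 or more. H1foo is left out because its fitted value is set by counts of 0, and H1f0 lies on opposite sides of 0, at -1.54 and 0.56, while H2afx lies at 0.94 and 3.45.

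Of the genes that process histone mRNA 7 of 13 were lower in intact blastocysts and 2 higher, and of the chaperone genes 18 of 27 were lower and 5 higher, where 45.9% of all genes were lower and 31.2% higher. Casp8ap2, of the histone locus body (-3.60), and Slbp (-2.12) fell, and so did Zfp473 (-3.82) and Npat (-1.58), the latter an activator of histone genes. Npm2, the nucleoplasmin of the oocyte, fell most (-9.85), followed by Asf1b (-4.30), and Ep400 (-2.68) and Atrx (-1.85) fell as well. The list medians were -0.48 and -0.60, close to the -0.41 of all genes.

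Twin and intact blastocysts differed in a further set of histone genes. H2afx and H1f0 were several times higher in twins, with H2afx in each of the 19 twin pairs above each of the 31 intact blastocysts. H2afv, H2afy, Hist1h1b, Hist1h1e and Hist1h2bc were higher by smaller factors, while H3f3a was lower. With depth terms the calls of H2afx, H1f0 and H2afy alone among these 8 remained. Total counts did not overlap between the groups, so that fit cannot tell depth from group. A whole blastocyst was sequenced, so fewer cells of a type and less RNA per cell cannot be told apart.

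H2afx stood at 217 CPM ± 43 in twins (SD, n = 19; lowest 156, median 209, highest 298) and 43.2 ± 27.99 in intact blastocysts (n = 31; 5.78, 41.8 and 150). It was 4.77-fold higher in twins (log2 2.25 ± 0.19, edgeR adjusted p = 7.92e-15). The model of H2afx holds a stem-loop, so any of its mRNA without a tail was not measured. H1f0 stood at 305 CPM ± 61 (199, 304 and 411) against 84.3 ± 53.1 (17.1, 67.4 and 252) and was 3.48-fold higher (log2 1.80 ± 0.17, edgeR adjusted p = 2.46e-13). Its ranges overlapped between 199 and 252 CPM. H3f3a stood at 397 ± 48 against 476 ± 106.3 CPM, with a log2 fold change of -0.37 ± 0.10 (edgeR adjusted p = 0.00219).

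Among the clustered genes Hist1h1b stood at 46.8 CPM ± 17.2 in twins (15.8, 47.7 and 82.5) and 19.5 ± 17.9 in intact blastocysts (0, 15.03 and 80.9), a log2 fold change of 1.21 ± 0.29 (edgeR adjusted p = 0.000468). Hist1h1e stood at 57.3 against 29.2 CPM (0.87, edgeR adjusted p = 0.00187) and Hist1h2bc at 54.7 against 34.4 CPM (0.59, edgeR adjusted p = 0.0482), a difference that turned to -0.13 with total count and detected genes as terms. The ranges of these 3 genes overlapped. H2afv (log2 0.64) and H2afy (0.42) were also higher. Hist1h2ae, Hist1h2ap, Hist1h1c, Hist1h1d, Hist1h1a, Hist1h4d, Hist1h4i, Hist2h2ac, H2afj, H2afz, H3f3b and H1fx did not pass, with log2 values from -0.24 to 0.68.

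In all 7 of 20 members were higher in twins and 1 lower, where 42.3% of all 9379 genes were called (20.4% higher and 21.9% lower). Twin pairs were read more deeply (a mean of 2229284 to 2332721 counts per pair over the sites, against 644749 to 798618 per intact blastocyst). Each single twin had at least 713410 counts and no intact blastocyst had over 1254428, so no pair was as shallow as an intact blastocyst. Total count therefore follows the group, and calls kept, lost or gained with depth terms cannot tell depth from group. With total count and detected genes as terms 3 members stayed higher, H2afx (3.84-fold), H1f0 (2.58-fold) and H2afy (1.499-fold), 1 was lower, Hist1h4d (log2 -1.44, edgeR adjusted p = 0.0286), and 11.7% of all genes were called. Hist1h1e, Hist1h1b, H3f3a, H2afv and Hist1h2bc then had adjusted p-values from 0.306 to 0.892. Using 1 twin per pair, or leaving out the 6 intact blastocysts under 500000 counts, again gave 7 higher and 1 lower (37.7% and 46.1% of all genes called). Markers of cell types moved too, with Pou5f1 (log2 1.70), Nanog (0.71) and Sox2 (0.80) higher in twins and the 4 epiblast markers at a sum of 338 CPM (227 to 451) against 130 (24.04 to 277). Of the 5 trophectoderm markers Cdx2 was higher (1.41) and Tfap2c (-1.34) and Gata3 (-0.68) lower, with sums of 3058 CPM (2768 to 3361) and 3301 (2417 to 5706), and the 4 primitive endoderm markers, of which Gata6 was higher (0.58), summed to 397 CPM (281 to 481) and 289 (58.5 to 569). Of the 6 oocyte and early 2-cell markers 1 was tested here, Dppa3. It was higher in twins (log2 2.79), at a mean of 556 CPM against 88.9. The part of these markers in the histone values was not tested.

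**Figure D5:**
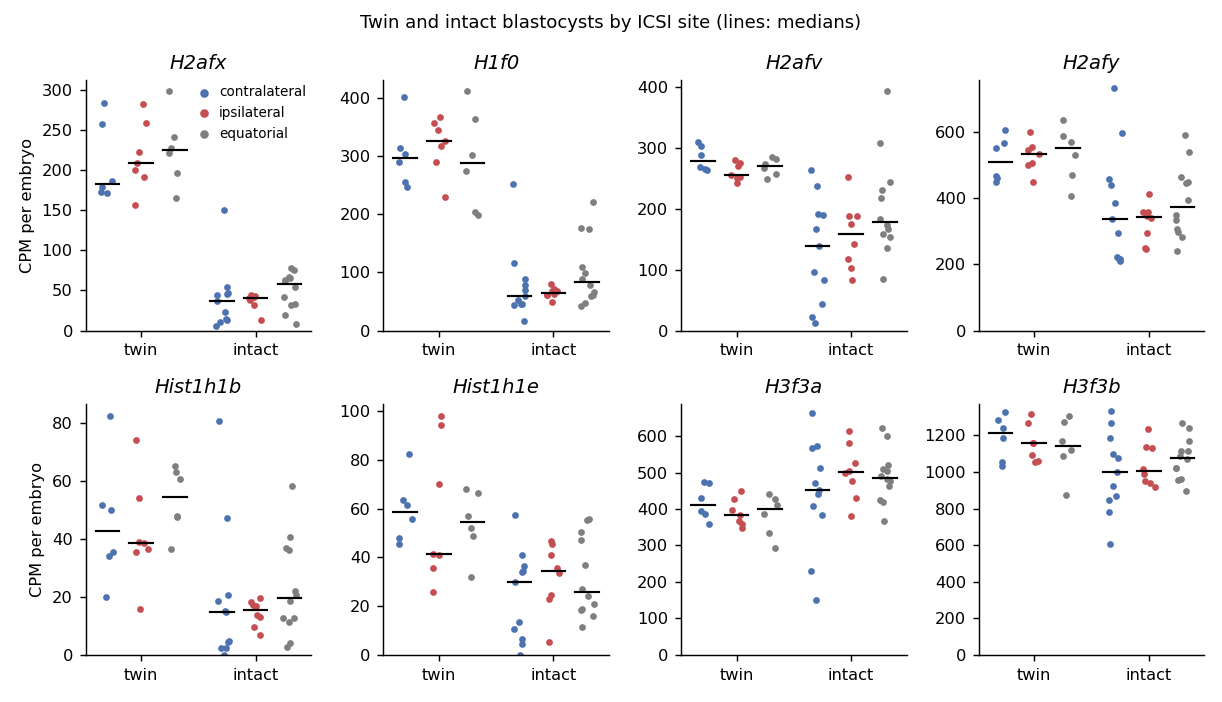
CPM per embryo (y axes, linear from 0) of 8 histone genes in twin pairs and intact blastocysts, coloured by ICSI site, with the median of each site as a line. H2afx in twins starts at 156 CPM and in intact blastocysts ends at 150 CPM, and within each stage the 3 sites overlap.

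Of the pathway genes 7 of 26 chaperones were higher in twins and 4 lower, and 1 processing gene was higher (Lsm11, 0.77) and 1 lower (Hinfp, -0.60) of 13, where 20.4% of all genes were higher and 21.9% lower. Npm1 (-0.90) and Rbbp4 (-0.66) were lower, and Hat1, the acetyltransferase of new H4 (0.61), and Asf1b (1.59) higher.

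The site of ICSI left no difference in the histone genes of blastocysts that passed the test. edgeR called 0 of 26 members in twins and 0 of 18 in intact blastocysts in each of the 3 comparisons, where 0% of all genes were called, and DESeq2 called no member either. At an unadjusted p under 0.05 there was 1 member in twins, Hist1h1c between contralateral and ipsilateral ICSI (log2 -0.70). In intact blastocysts there were 2 between ipsilateral and equatorial, Hist1h4i (-2.24) and H1f0 (-0.72), and 2 between contralateral and ipsilateral ICSI, Hist1h4i (1.62) and H1fx (1.66). At that limit stood 6.62%, 3.87% and 6.86% of all genes in twins, and 6.86%, 3.69% and 5.7% in intact blastocysts, for contralateral against equatorial, ipsilateral against equatorial and contralateral against ipsilateral ICSI. H2afx in twins stood at 208 CPM after contralateral, 217 after ipsilateral and 225 after equatorial ICSI, and H1f0 at 302, 319 and 292.

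The next smallest p-values in twins were those of H3f3a, Hist1h2ap and H1fx between contralateral and equatorial ICSI (log2 0.17, 0.28 and 0.64), of H1fx, Hist1h1c and Hist3h2a between ipsilateral and equatorial ICSI (0.89, 0.56 and -1) and of H2afv and Hist3h2a between contralateral and ipsilateral ICSI (0.16 and 0.80). In intact blastocysts they were those of Hist1h2ap, H2afv and Hist1h1d between contralateral and equatorial ICSI (-0.76, -0.61 and -1.13), with H2afj (-0.36) and Hist1h2ae (-0.91) next in the other comparisons. H1foo, which differed in 2-cell embryos, had no counts at any site in intact blastocysts. H3f3a stood at 441, 501 and 490 CPM in intact blastocysts after contralateral, ipsilateral and equatorial ICSI. A test of whether the site effects differed between twins and intact blastocysts, added after the data were seen, called 0 of 10689 genes, with 1 member at an unadjusted edgeR p under 0.05 for contralateral against equatorial (Hist1h2ap), 2 for ipsilateral against equatorial (Hist1h4i and H1fx) and 0 for contralateral against ipsilateral ICSI, where 2.71%, 2.06% and 3.39% of all genes stood.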

How the data were processed

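The authors trimmed the reads with Trimmomatic, aligned them with STAR 2.7.10b without strand to GRCm38 and deposited raw counts per gene for 194 of the 219 labelled samples, as SMART-Seq libraries without molecular identifiers. The deposited counts were used as they stand. The members and gene lists were chosen with earlier results of these data known. Blastomeres with at least 9500 and blastocysts with at least 4000 detected genes were kept, both sisters or twins were added, and CPM and TPM (exon lengths of GENCODE M21, an earlier release than the authors' annotation, for 32235 genes) were computed.

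Comparisons used edgeR 4.0.16 (TMM, filterByExpr, quasi-likelihood with robust fit, R 4.3.3) over all genes with a threshold of 0.05, with plate for 2-cell embryos, ICSI site for twins against intact blastocysts, and both between stages, where blastomeres and blastocysts had been mapped separately. Absolute differences between sisters were tested with limma 3.58.1, and DESeq2 1.42.0 and a permutation of the rank-sum on added TPM, the study's test, were alternatives. Genes outside the clusters with a count, the 10 highest clustered genes at the 2-cell and intact stages, called members (up to 12) or the 3 smallest p-values, and up to 4 called pathway genes are named per comparison. The lists held 14 genes of histone mRNA processing, 27 of chaperones and deposition, and markers of oocyte, trophectoderm, epiblast, primitive endoderm and cumulus. In counts simulated from these samples with 200 genes changed 2-fold, edgeR recovered 55.5% between contralateral and equatorial 2-cell embryos, 54.5% in twins, 34% in intact blastocysts, 75% between twins and intact blastocysts and 52.5% between stages. The changed genes were drawn only from genes above a floor in mean count, so recovery for the rarer members was not measured. Between twins and intact blastocysts 42.3% of all genes were called, and between stages 77.1%, a larger share than was changed in the simulation. Recovery under such broad change was not measured either. The p-values for levels between groups measure the spread between these embryos, with summed twin pairs set against single intact blastocysts. Those of sisters a and b measure the spread within embryos, and those of limma the spread of sister differences between embryos. Sequences came from RefSeq and GENCODE tables. Reads of histone copies that share sequence may be split between them or dropped.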

Additional observations from a re-analysis of the deposited data

Results flagged for a closer look

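Of 72 groups of embryos (18 histone genes in the groups of 4 to 10 blastocysts), 6 held 1 embryo far from the others by Dixon's criterion, and chance gives about 1 in 20. Hist1h1c was lowest at 7.06 CPM in 1 of 6 contralateral twin pairs, with the next at 24.6 CPM. H1fx was highest at 24.9 CPM in 1 of 7 ipsilateral twin pairs (next 13.2 CPM), and Hist1h1d highest at 19.9 CPM in 1 of 6 equatorial twin pairs (next 11.6 CPM). Of the 8 intact ipsilateral blastocysts 1 was lowest in both Hist1h2ae, at 26.2 CPM (next 59.8), and Hist1h1e, at 5.23 CPM (next 22.8), and had 573605 counts. Another was lowest in H2afx at 12.8 CPM (next 31.5).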

How the results depend on the processing

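Most values kept their direction and their side of the threshold. Without a filter on low counts more members were called, 9 for contralateral and 8 for ipsilateral against equatorial ICSI in 2-cell embryos, 3 for contralateral against ipsilateral, 16 between twins and intact blastocysts and 52 between stages, with 75 to 77 members tested in place of 20 to 29. Between contralateral and equatorial ICSI DESeq2 called 6 members, plate 1 alone 5, all sister pairs 4 and the rank-sum test on TPM 4, against 2. In plate 2 alone, added after the data were seen, 0 were called in this and 0 in the ipsilateral comparison, and H3f3a turned to -0.22. Between ipsilateral and equatorial ICSI 0 were called with depth terms and 1 (Hist1h1a, without H1foo) with a mitochondrial limit of 2%, which is a reading of the limit in the study's methods, where it is stated as a smaller percentage. Between twins and intact blastocysts 4 were called with depth terms, where Hist1h2bc turned to -0.13. With twins in place of intact blastocysts H1f0 turned to 0.56 and H2afv to 0.066. The cause of these changes was not tested. No paired analysis was possible because embryo numbers are not shared between the ICSI sites, and sisters were added before the fit. Of the 67 clustered genes, most were at 0 in over 50% of the blastomeres, which limits what the counts can show.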
